A study of Mus musculus with 9 samples.

Results

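The interferon regulatory factors are a family of transcription factors, and 8 of their genes, Irf1, Irf2, Irf3, Irf4, Irf5, Irf7, Irf8 and Irf9, were followed here out of 56748 genes counted. They were chosen by name as a family, with earlier results of these data known, and all 8 passed the filter on low counts.

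Proteins of this family bind DNA through a shared N-terminal domain that reads the GAAA repeats of interferon-stimulated response elements (ISREs). Irf3 and Irf7 are phosphorylated downstream of sensors of foreign nucleic acid and switch on interferon genes, Irf9 is part of the ISGF3 complex that answers type I interferon, and Irf1 and Irf2 act as activator and mainly repressor at overlapping sites. Irf8 is needed for microglia and other myeloid cells, Irf5 acts behind Toll-like receptors in the same cells, and Irf4 is best known from lymphocytes and dendritic cells.

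RNA was measured in cortical cells of wild-type (WT) C57BL/6J mice aged 2 to 3 months, in 9 libraries with 3 biological replicates in each of 3 groups. Uninjured cortex and injured cortex, the latter the core of a grid of lancet stab wounds, were dissociated and sorted to remove neurons bearing CD171. Reactive cultures were lesion cores cultured in the presence of 10% fetal bovine serum (FBS) and taken whole, so the cultures differ from injured cortex in the sort, in the time since injury and in the culture itself, which cannot be told apart. Sources differ on the times: by the labels tissue was taken 1 day after injury and the cultures grew for 6 days, and by the design text injured cortex was taken at 3 days and the cultures were started at 24 h and grew for 8 days. In such bulk samples fewer cells of a type and less RNA per cell cannot be told apart.

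Total counts were 12205049 to 18577561 per library in uninjured cortex, 20389561 to 21135163 in injured cortex and 16667883 to 24302770 in the cultures. Uninjured replicates 2 and 3 stood apart, with 182 and 151 CPM of the plain library total summed over 1999 olfactory and vomeronasal receptor genes, against 14.4 to 44.1 CPM in the other 7 libraries. All other levels and sums are TMM-scaled CPM (TMM, trimmed mean of M values, multiplies each library total by a factor), with factors of 0.717 to 0.768 in the cultures, 0.938 and 1.02 in injured replicates 2 and 1, 1.39 in injured replicate 3 and 1.13 to 1.35 in uninjured cortex. Injured replicate 3 also stood apart, with the highest astrocyte marker sum of its group (3971 against 2223 and 2702 CPM) and the lowest monocyte marker sum (325 against 2589 and 1101 CPM). Neuron markers were low in every library, 17.8 to 104 CPM summed over 10 genes. The 10 microglia markers summed to 9454 to 15307 CPM in uninjured cortex, 5495 to 15961 CPM in injured cortex and 1392 to 2163 CPM in the cultures, and the 10 oligodendrocyte markers to 20481 to 36283, 13472 to 18737 and 420 to 790 CPM. The 10 leukocyte and general myeloid markers summed to 5461 to 7036, 5836 to 13482 and 7448 to 8547 CPM.

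Promoter windows of all 8 genes were found in RefSeq (GRCm38.p6), 11 windows in all, each running from 250 bases before a transcription start to 50 bases after it. They were searched on both strands for the ISRE core (GAAA, any 2 bases, GAAA), held by 3.44% of 32851 such windows, for the gamma-activated site TTCNNNGAA, an element of interferon-gamma responses, held by 8.30%, and for the kappaB motif (GGGA, any 4 bases, CC), held by 20.7%. The 250 bases before the first listed start are shown for Irf1, Irf2 and Irf8, whose windows hold a gamma-activated site, and for Irf7, the gene with the largest change after injury, whose window holds none of the 3 motifs. Capitals mark the matches, 5′ to 3′ on the strand of the gene.
Irf1, chr11:53769764-53770013, plus strand: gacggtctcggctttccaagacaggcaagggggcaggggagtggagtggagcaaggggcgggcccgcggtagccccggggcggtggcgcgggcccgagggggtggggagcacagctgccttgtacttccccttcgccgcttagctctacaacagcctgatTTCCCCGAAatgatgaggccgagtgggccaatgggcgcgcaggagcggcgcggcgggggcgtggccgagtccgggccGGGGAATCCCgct
Irf2, chr8:46739495-46739744, plus strand: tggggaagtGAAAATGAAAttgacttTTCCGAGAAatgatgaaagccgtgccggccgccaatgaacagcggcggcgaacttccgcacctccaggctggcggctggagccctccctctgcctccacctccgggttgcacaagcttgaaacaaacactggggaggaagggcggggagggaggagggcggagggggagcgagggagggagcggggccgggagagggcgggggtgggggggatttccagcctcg
Irf8, chr8:120736108-120736357, plus strand: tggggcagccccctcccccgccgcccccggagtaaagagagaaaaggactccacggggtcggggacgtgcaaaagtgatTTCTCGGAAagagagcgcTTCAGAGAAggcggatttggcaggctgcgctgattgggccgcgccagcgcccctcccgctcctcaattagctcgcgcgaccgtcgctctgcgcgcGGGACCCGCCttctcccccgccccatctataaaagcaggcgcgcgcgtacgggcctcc
Irf7, chr7:141266425-141266674, minus strand: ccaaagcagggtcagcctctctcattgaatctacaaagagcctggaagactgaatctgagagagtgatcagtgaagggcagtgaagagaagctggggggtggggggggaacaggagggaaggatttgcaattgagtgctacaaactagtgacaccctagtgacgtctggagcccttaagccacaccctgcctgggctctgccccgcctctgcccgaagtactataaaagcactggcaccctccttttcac
In Irf1 the gamma-activated site TTCCCCGAA lies at bases -90 to -82 from the start and a kappaB match at -13 to -4. In Irf2 the ISRE core GAAAATGAAA lies at -241 to -232 and a gamma-activated site at -224 to -216. Irf8 holds gamma-activated sites at -171 to -163 and -153 to -145 and a kappaB match at -58 to -49, with a second kappaB match after the start, at 11 to 20. These matches do not overlap one another. Irf4 held 1 kappaB match, at -182 to -173. The windows of 4 genes, Irf3, Irf5, Irf7 and Irf9, held no match to these letters.

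Injured and uninjured cortex were compared first, for the response of the sorted cells to the wound. Irf7, Irf9 and Irf8 were higher after injury, Irf7 by far the most, and no member was lower. These 3 of 8 members (37.5%) were called by edgeR's quasi-likelihood test at a Benjamini-Hochberg adjusted p under 0.05, where 11.9% of 18093 genes tested were called, 8.99% higher and 2.87% lower. The count changed with single libraries: with 1 library left out only 1 member, Irf7, was called (12.5%) in 7 of 9 cases, without injured replicate 1 or 2, uninjured replicate 2 or 3, or any culture, where 5.12% to 9.90% of genes were called. It was 3 (37.5%) without uninjured replicate 1, where 11.8% of genes were called, and 5 (62.5%) without injured replicate 3, where 21.9% were. With upper-quartile factors or the 2 groups alone it was 1 (12.5%), where 11.7% and 7.84% of genes were called. The members' median log2 fold change was 0.65, against 0.0012 over all genes tested. The groups did not overlap for 2 members, Irf7 and Irf8, both higher, where 28.6% of all genes did not overlap, 16.1% higher and 12.5% lower.

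**Figure D1:**
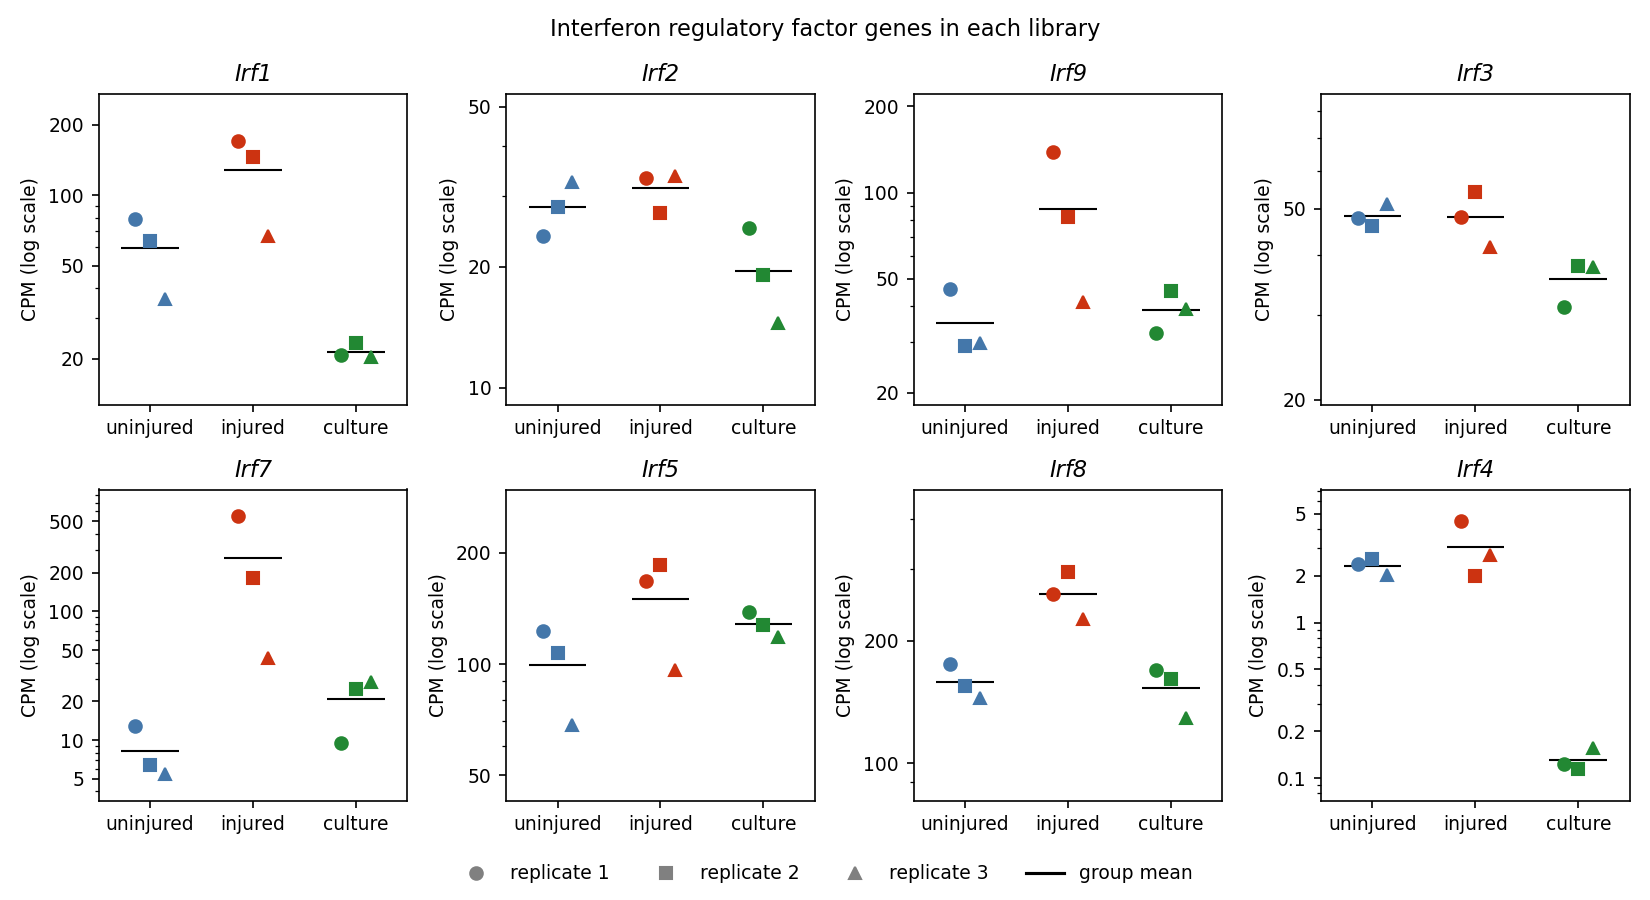
Level of each of the 8 genes in each library as CPM scaled by the trimmed mean of M values (log axis), for uninjured cortex, injured cortex and reactive culture, with symbols for replicates and a bar for the group mean. Irf7 lies at 43.5 to 554 CPM in injured cortex and at 5.42 to 28.4 CPM elsewhere, and Irf4 lies near 0.1 CPM in the cultures only.

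Among the members that act at interferon genes, Irf7, itself induced by interferon, was at 12.9, 6.47 and 5.42 CPM in uninjured replicates 1, 2 and 3. It was at 554, 182 and 43.5 CPM in the injured libraries and at 9.44, 25.1 and 28.4 CPM in the cultures. Every injured library exceeded every other library, but the injured libraries differed from each other by 12.7 times. Irf7 rose 31.4-fold after injury, a log2 fold change of 4.97 ± 0.81 (SE; adjusted p = 0.00180, edgeR). It was 3.75 without injured replicate 1 and 5.46 without injured replicate 3, both called, and 4.31 with uninjured replicates 2 and 3 both left out, which was not called (adjusted p = 0.122).

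Irf3, the constitutively made partner of Irf7, showed no change that passed the test. It was at 47.9, 45.9 and 51.0 CPM in uninjured cortex, 48.0, 54.3 and 41.7 CPM in injured cortex and 31.3, 38.1 and 37.8 CPM in the cultures. Uninjured and injured libraries overlapped and all 3 cultures lay below them. Its log2 fold change after injury was -0.01 ± 0.18 (adjusted p = 0.982, edgeR).

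Irf9, the DNA-binding subunit of ISGF3, was at 45.9, 29.1 and 29.7 CPM in uninjured cortex and at 139, 81.9 and 41.6 CPM in injured cortex. In the cultures it was at 32.4, 45.5 and 39.1 CPM. Injured replicate 3 fell inside the uninjured range and the other injured libraries lay above it. Irf9 rose after injury with a log2 fold change of 1.32 ± 0.36 (adjusted p = 0.0340, edgeR). That call was lost under 11 of 19 alternatives, among them the omission of injured replicate 1 (0.80, adjusted p = 0.202), injured replicate 2 (1.38, 0.0557), uninjured replicate 2 (1.19, 0.141), uninjured replicate 3 (1.20, 0.125) or any single culture (adjusted p = 0.0505 to 0.0554), and of uninjured replicates 2 and 3 together (0.91, 0.504).

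Irf1, a tumour suppressor and activator induced by interferon-gamma, was at 78.9, 63.7 and 35.9 CPM in uninjured cortex. It was at 170, 146 and 66.9 CPM in injured cortex and at 20.7, 23.3 and 20.4 CPM in the cultures. Injured replicates 1 and 2 lay above all uninjured libraries, replicate 3 among them, and the cultures below both groups. The log2 fold change after injury, 1.10 ± 0.34, did not pass the test (adjusted p = 0.0570, edgeR), but did without injured replicate 3 (1.39, adjusted p = 0.00276) and without uninjured replicate 1 (1.37, adjusted p = 0.0367).

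Irf2, which competes with Irf1 for the same sites, was at 23.8, 28.1 and 32.5 CPM in uninjured cortex and at 33.3, 27.1 and 33.7 CPM in injured cortex. In the cultures it was at 25.0, 19.1 and 14.5 CPM. The in vivo groups overlapped, and the log2 fold change of 0.16 ± 0.23 did not pass the test (adjusted p = 0.725, edgeR).

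Among the myeloid and lymphoid members, Irf8 was at 175, 155 and 145 CPM in uninjured cortex, 260, 295 and 226 CPM in injured cortex and 170, 161 and 129 CPM in the cultures. The injured libraries lay above the other 6 and differed from each other by 1.31 times. Irf8 rose after injury with a log2 fold change of 0.72 ± 0.21 (adjusted p = 0.0435, edgeR). The call was lost under 13 of 19 alternatives, with adjusted p from 0.0534 to 0.164 on leaving out any single library other than injured replicate 3, and 0.525 without uninjured replicates 2 and 3, while the log2 fold change stayed between 0.55 and 0.81 in those fits.

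Irf5, an activator of inflammatory cytokine genes, was at 123, 107 and 68.4 CPM in uninjured cortex, 167, 185 and 96.2 CPM in injured cortex and 139, 127 and 119 CPM in the cultures. The groups overlapped, and replicate 3 was lowest in each. The log2 fold change after injury was 0.59 ± 0.28 and did not pass the test (adjusted p = 0.205, edgeR), but did without injured replicate 3 (0.81, adjusted p = 0.0282).

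Irf4 was the least abundant member. It was at 2.37, 2.56 and 2.01 CPM in uninjured cortex, from 43, 57 and 33 counts, at 4.48, 1.99 and 2.72 CPM in injured cortex, from 95, 38 and 80 counts, and at 0.123, 0.115 and 0.156 CPM in the cultures, from 2 counts in each library. The in vivo groups overlapped (log2 fold change 0.40 ± 0.41, adjusted p = 0.581, edgeR), and the cultures lay far below both.

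Markers of several blood-borne cell types were also called higher after injury, to different extents. In that comparison 8 of 8 monocyte markers, 10 of 10 T and NK cell markers and 5 of 7 dendritic cell markers were called higher (edgeR), with median log2 fold changes of 4.98, 2.89 and 3.56. Of neutrophil markers 6 of 10 were called (median 1.79), of leukocyte and general myeloid markers 3 of 10 (median 0.77) and of B and plasma cell markers 1 of 8 tested (median 0.71). Of 10 microglia markers 0 were called. Over all genes 8.99% were called higher and 2.87% lower. The monocyte sum was 2589, 1101 and 325 CPM in injured replicates 1, 2 and 3, in the same order as Irf7 and Irf9, and 26.8 to 48.3 CPM in uninjured cortex. That order was shared by the sums of T and NK cell markers (376, 156 and 99.1 CPM) and dendritic cell markers (415, 230 and 81.3 CPM). The neutrophil, leukocyte and B and plasma cell sums were instead highest in injured replicate 2. The part of these cells in the changes of Irf7, Irf9 and Irf8 was not tested.

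To set levels of different genes roughly side by side, they were taken per kilobase of merged exon, the joined length of all annotated exons. The transcripts made can be shorter than that, so the order depends on the annotation. In uninjured cortex it was Irf5 (34.3 CPM per kb), Irf8 (22.5), Irf1 (15.0), Irf3 (14.0), Irf9 (6.48), Irf2 (3.81), Irf7 (2.19) and Irf4 (0.472). The neighbours Irf5 and Irf8, Irf1 and Irf3, and Irf2 and Irf7 overlapped between libraries. In injured cortex Irf7 had the highest mean (68.7 CPM per kb), followed by Irf5 (51.5), Irf8 (36.9), Irf1 (32.0), Irf9 (16.2), Irf3 (13.9), Irf2 (4.24) and Irf4 (0.624). There each neighbour from Irf7 down to Irf3 overlapped the next, and Irf2 and Irf4 stood below the rest. Members further apart in the order could still separate. Irf3 (12.1 to 15.8 CPM per kb), for example, lay below Irf1 (16.8 to 42.6) in all injured libraries. In the cultures the order was Irf5 (44.1 CPM per kb), Irf8 (21.7), Irf3 (10.4), Irf9 (7.24), Irf7 (5.56), Irf1 (5.40), Irf2 (2.64) and Irf4 (0.0268), and Irf7 overlapped with both Irf9 and Irf1.

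The comparison of cultures with injured cortex asks how far lesion-derived cultures keep the state of the injured tissue. Irf4, Irf7, Irf1, Irf9, Irf8 and Irf2 were all lower in the cultures, and no member was higher. These 6 of 8 members (75.0%) were called, where 50.1% of all genes were called, 20.0% higher and 30.1% lower. Without culture replicate 3 the count was 3 (37.5%), no larger a share than the 38.6% of all genes, and without injured replicate 1 it was 4 of 8 against 42.0% of all genes. With upper-quartile factors it was 7 (87.5%), where 49.9% of genes were called. With library sizes that leave out the 100 most abundant and the mitochondrial genes it was also 7, where 49.4% were. The members' median log2 fold change was -0.96 against -0.19 over all genes. The groups did not overlap for 6 members, all lower in the cultures, where 59.7% of all genes did not overlap, 25.8% higher and 33.8% lower. Called genes were higher in 39.9% of cases, and in 29.6% with library sizes that leave out the 100 most abundant and the mitochondrial genes, a scaling that moved the median gene by -0.25. This comparison shares its injured libraries with the one above.

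**Figure D2:**
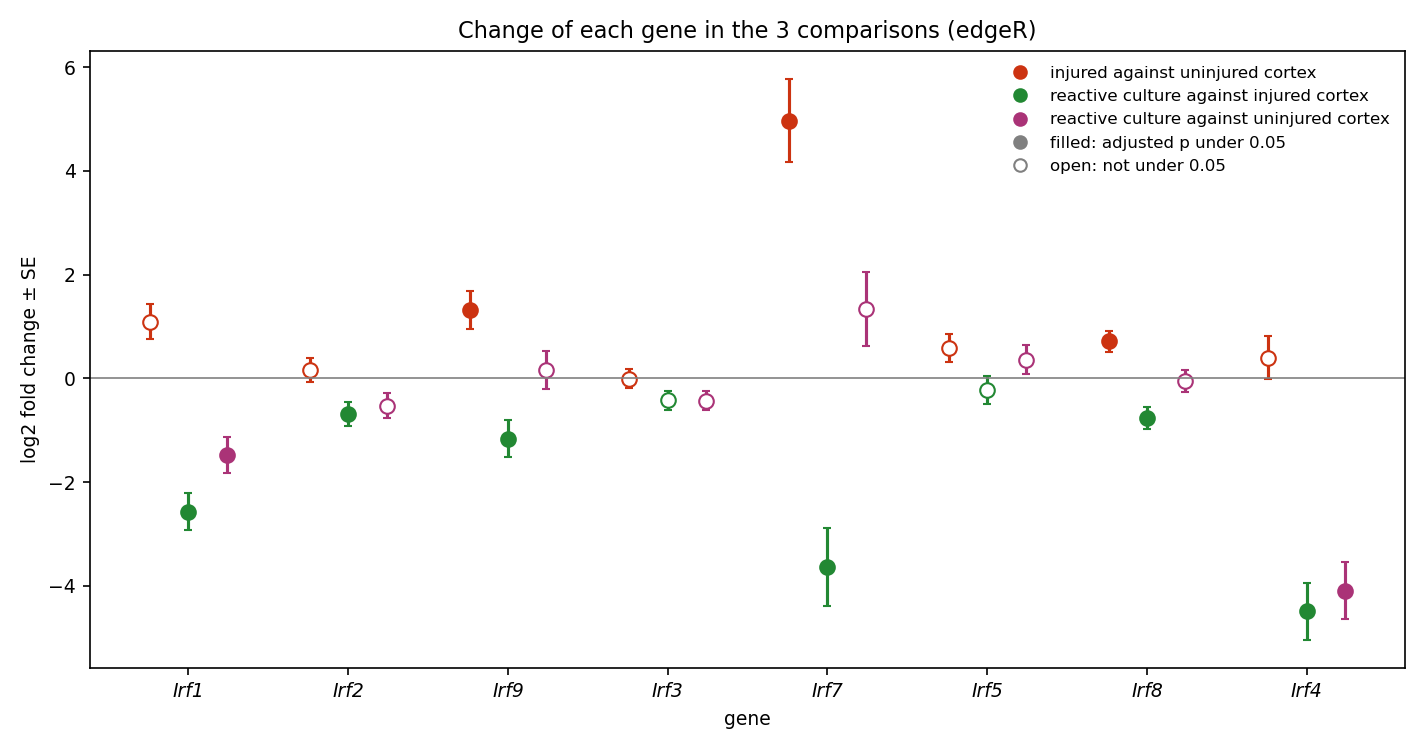
Log2 fold change with its SE (bars) of each gene in the 3 comparisons from edgeR, filled where the adjusted p was under 0.05. After injury 3 genes are filled and above 0, and in the cultures 6 genes are filled and below 0 against injured cortex and 2 against uninjured cortex.

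Irf4 fell by 4.49 ± 0.55 on the log2 scale in the cultures (adjusted p = 4.00e-05, edgeR), and the pooled level was 23.7 times higher in injured cortex (95% exact counting interval 10.7 to 65.2, counting error only). Irf1 fell by 2.57 ± 0.36 (adjusted p = 1.17e-04). Both were called under each of 19 alternatives. Irf7 fell by 3.63 ± 0.75 (adjusted p = 0.00189), also called under each of 19, with -2.44 without injured replicate 1 and -4.13 without injured replicate 3.

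Irf8 fell by 0.76 ± 0.21 (adjusted p = 0.00945, edgeR), a call lost only without culture replicate 3 (-0.65, adjusted p = 0.0619). Irf9 fell by 1.16 ± 0.36 (adjusted p = 0.0185), with overlapping groups, and the call was lost without injured replicate 1 (-0.67, adjusted p = 0.117), culture replicate 1 (-1.04, 0.0799) or culture replicate 3 (-1.16, 0.0580). Irf2 fell by 0.68 ± 0.23 (adjusted p = 0.0296), a call lost without injured replicate 1 (-0.63, adjusted p = 0.0808), injured replicate 3 (-0.62, 0.0624), culture replicate 2 (-0.66, 0.0903) or culture replicate 3 (-0.50, 0.132), and without uninjured replicates 2 and 3 together (-0.67, 0.0503). Irf3 lay lower in every culture, but its log2 fold change of -0.42 ± 0.18 did not pass the test (adjusted p = 0.0710). It passed without injured replicate 3 (-0.51, adjusted p = 0.0427) and with upper-quartile factors (-0.49, 0.0406). With library sizes that leave out the most abundant genes it passed as well (-0.66, adjusted p = 0.00612). Irf5 differed least, at -0.22 ± 0.28 (adjusted p = 0.522).

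Against uninjured cortex, which asks what the cultures have in place of the resting tissue, Irf1 and Irf4 were called, both lower. These 2 of 8 members (25.0%) compare with 60.5% of all genes called, 27.5% higher and 33.1% lower. The count was 4 of 8 with DESeq2's Wald test, a filter of 1 CPM in 3 libraries, upper-quartile factors or without injured replicate 3. In those settings 60.6% to 64.8% of all genes were called, still a larger share than of the members. It was 5 (62.5%) with the 2 groups alone or with library sizes that leave out the most abundant genes, where 66.2% and 60.7% of genes were called. The members' median log2 fold change of -0.24 compares with -0.17 over all genes. The groups did not overlap for 3 members, Irf1, Irf3 and Irf4, all lower, where 69.2% of all genes did not overlap, 32.1% higher and 37.1% lower. Called genes were higher in 45.4% of cases, and in 32.0% with library sizes that leave out the most abundant genes, which moved the median gene by -0.40. Irf4 fell by 4.09 ± 0.55 (adjusted p = 5.45e-05, edgeR), and was 18.2 times higher in uninjured cortex by pooled counts (95% exact interval 8.12 to 50.4). Irf1 fell by 1.47 ± 0.35 (adjusted p = 0.00317), and both calls held under each of 19 alternatives.

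The other 6 members did not pass the test against uninjured cortex in edgeR. Irf7 was at a log2 fold change of 1.34 ± 0.71 (adjusted p = 0.119), above the uninjured range in culture replicates 2 and 3 and within it in replicate 1. It passed in 3 of 19 alternatives. These were the fits without injured replicate 3 (1.33, adjusted p = 0.0231), with no filter (1.35, 3.98e-06) and with the 2 groups alone (1.26, 0.0154). Irf8 was at -0.05 ± 0.21 (adjusted p = 0.853) and Irf9 at 0.16 ± 0.36 (adjusted p = 0.711). Irf5 was at 0.36 ± 0.28 (adjusted p = 0.271), Irf2 at -0.53 ± 0.23 (adjusted p = 0.0697) and Irf3, whose groups did not overlap, at -0.43 ± 0.18 (adjusted p = 0.0569). The last 2 were called in part of the alternatives, Irf2 without culture replicate 1 (-0.72, adjusted p = 0.0275) and Irf3 without injured replicate 3 (-0.45, adjusted p = 0.0352). The directions of Irf8, Irf9 and Irf5 changed with the setting, as given in the closing section.

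Ratios of 2 members within a library do not depend on the library scaling. The log2 ratio of Irf7 to Irf3 counts was -1.89, -2.82 and -3.22 in uninjured cortex, 3.53, 1.74 and 0.06 in injured cortex and -1.72, -0.60 and -0.41 in the cultures. Irf7 counts thus exceeded Irf3 counts in all 3 injured libraries and in no other library. The 3 groups did not overlap on this ratio, with differences in mean of 4.42 for injured minus uninjured cortex, -2.69 for culture minus injured cortex and 1.73 for culture minus uninjured cortex. Each gave p = 0.1 in a two-sided exact permutation test, the smallest that 3 against 3 allows, and 0.15 after Benjamini-Hochberg adjustment over 12 ratio comparisons.

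The log2 ratio of Irf1 to its antagonist Irf2 was 1.73, 1.18 and 0.14 in uninjured cortex, 2.35, 2.42 and 0.99 in injured cortex and -0.27, 0.29 and 0.49 in the cultures. The cultures lay below injured cortex without overlap, with a difference of -1.75 (exact permutation p = 0.1, adjusted 0.15), and overlapped with uninjured cortex. The ratio in injured cortex exceeded that in uninjured cortex by 0.90 with overlapping groups (exact permutation p = 0.3, adjusted 0.36).

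The log2 ratio of Irf5 to Irf8 was -0.51, -0.54 and -1.08 in uninjured cortex, -0.64, -0.67 and -1.23 in injured cortex and -0.29, -0.34 and -0.12 in the cultures. The cultures lay above both in vivo groups, by 0.59 over injured and 0.46 over uninjured cortex (exact permutation p = 0.1 each, adjusted 0.15). The ratio of Irf4 to Irf8 lay lowest in the cultures, at -9.85, -9.87 and -9.11 against -7.18 to -5.85 in the 6 in vivo libraries.

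**Figure D3:**
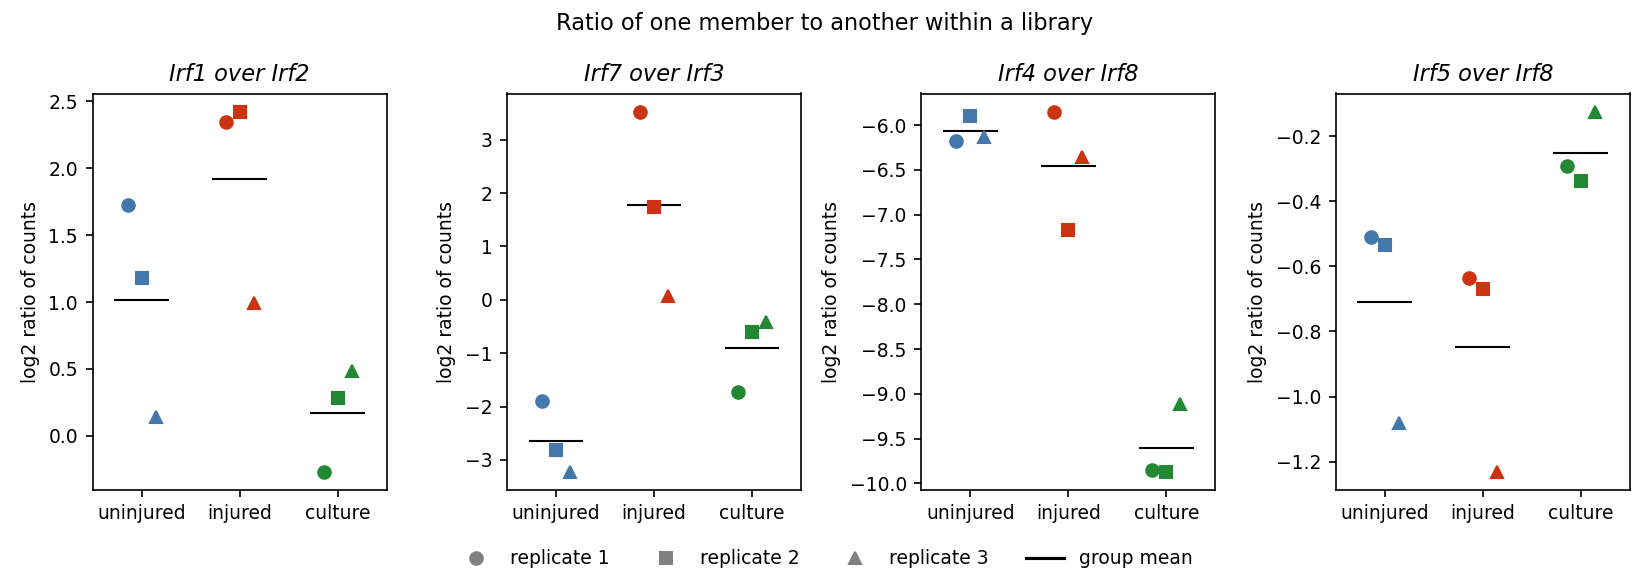
Log2 ratio of the counts of 2 members in each library (1 added to each count), with symbols for replicates and a bar for the group mean. Irf7 over Irf3 separates the 3 groups, with 0.06 to 3.53 in injured cortex, -1.72 to -0.41 in the cultures and -3.22 to -1.89 in uninjured cortex.

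Irf8, Irf5 and Irf4 were also set against the summed level of 10 leukocyte and general myeloid markers, since the makeup of cells moved with the groups. Per 1000 CPM of these markers Irf8 was at 24.9, 22.4 and 26.5 CPM in uninjured cortex, 22.8, 21.9 and 38.7 CPM in injured cortex and 19.8, 19.5 and 17.4 CPM in the cultures. Relative to the markers, injured replicates 1 and 2 lay within or just below the uninjured range, injured replicate 3 lay above every other library, and the cultures lay below both in vivo groups. Irf5 was at 12.5 to 17.5 CPM per 1000 in uninjured cortex, 13.7 to 16.5 in injured cortex and 15.4 to 16.2 in the cultures, so its groups overlapped throughout. Irf4 was at 0.337 to 0.370 CPM per 1000 in uninjured cortex, 0.147 to 0.466 in injured cortex and 0.0139 to 0.0210 in the cultures.

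**Figure D4:**
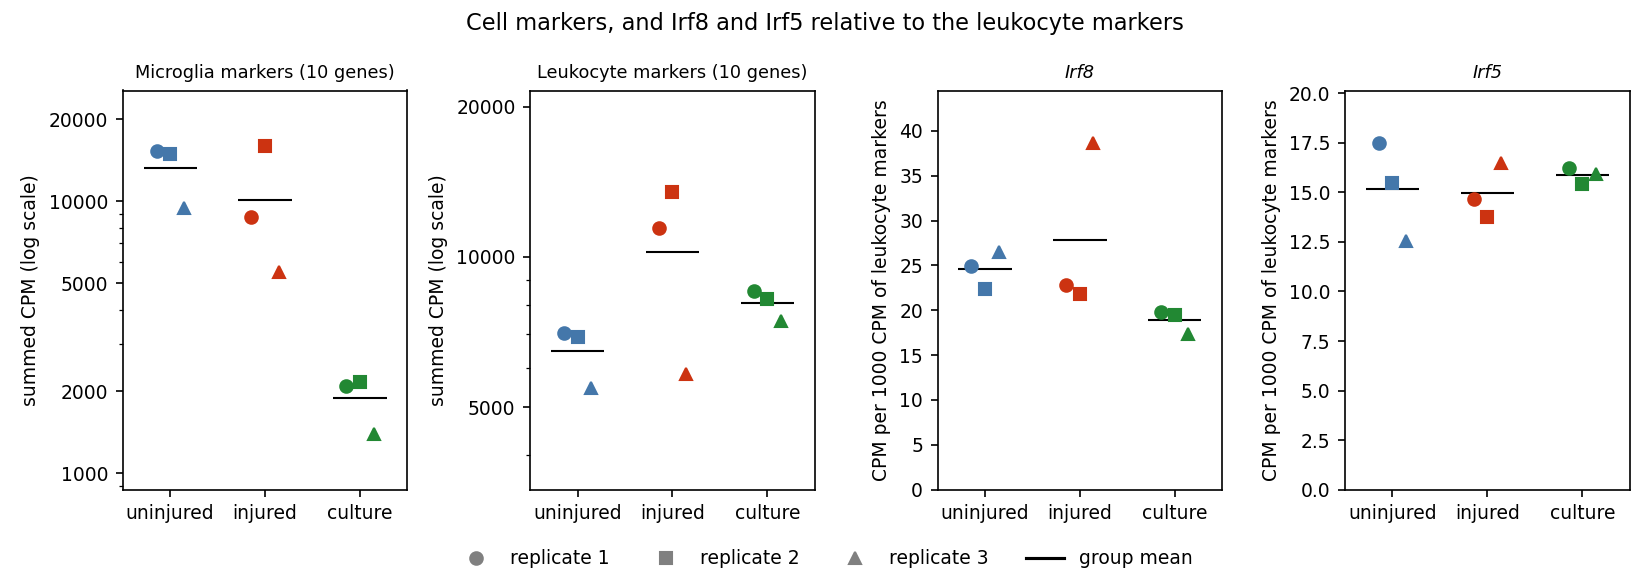
Summed CPM of 10 microglia markers and of 10 leukocyte and general myeloid markers (log axes), and Irf8 and Irf5 per 1000 CPM of the latter (linear axes), in each library with a bar for the group mean. The microglia sum is 1392 to 2163 CPM in the cultures, under every in vivo library, whereas Irf5 is at 12.5 to 17.5 CPM per 1000 CPM of leukocyte markers in all 9 libraries.

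Irf8 and Irf5 did not pass the test between cultures and uninjured cortex, although Irf8 was called lower (-0.45, adjusted p = 0.0287, edgeR) with library sizes that leave out the most abundant genes. Of the microglia markers, 10 of 10 were called lower in the cultures against injured and against uninjured cortex (median log2 fold changes -4.97 and -5.72). Over all genes 30.1% and 33.1% were called lower. Of the 10 leukocyte and general myeloid markers, 3 were called higher and 2 lower against uninjured cortex (median 0.12), where 27.5% and 33.1% of all genes were. B and plasma cell markers summed to 276 to 418 CPM in uninjured cortex, 247 to 597 CPM in injured cortex and 3.05 to 9.07 CPM in the cultures, where Pax5, Jchain and Mzb1 were among the markers at 0 counts. The sums of oligodendrocyte, astrocyte (97.5 to 157 CPM in the cultures) and dendritic cell markers (6.48 to 8.09 CPM in the cultures) were also lowest there. Fibroblast and mural markers summed to 3445 to 4139 CPM in the cultures against 208 to 665 CPM in vivo, but the list was split. Of its 10 genes, 7 were called higher and 3 lower against injured cortex, and 6 higher and 2 lower against uninjured cortex. The part of any of these cells in the low Irf4 of the cultures was not tested.

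Upstream of the family, 21 genes of nucleic acid sensors and their adaptors were counted. After injury 6 were called higher, 0 lower and 15 not (edgeR, median log2 fold change 0.46), and 3 higher without injured replicate 1. Over all genes 8.99% were called higher and 2.87% lower after injury. In the cultures the shares were 20.0% and 30.1% against injured cortex, and 27.5% and 33.1% against uninjured cortex. These shares also stand beside the counts of the lists that follow. Dhx58, which encodes the RIG-I-like protein LGP2, rose by 2.74 (adjusted p = 0.00144), and Ikbke, an Irf3 and Irf7 kinase, by 1.86 (adjusted p = 0.00484). Tlr7, a sensor of single-stranded RNA, was at 0.17 (adjusted p = 0.731), -0.27 (0.398) and -0.10 (0.749) in the 3 comparisons and passed the test in none.

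In the cultures calls among the 21 sensor genes went both ways, as they did over all genes. Against injured cortex 4 were called higher and 8 lower (median -0.29), where 20.0% and 30.1% of all genes were. Against uninjured cortex 5 were called higher and 4 lower (median 0.35), where 27.5% and 33.1% of all genes were. The lower count there was 2 without uninjured replicate 2 or culture replicate 3. Tlr8 counts were 0, 4 and 2 in uninjured cortex, 38, 27 and 27 in injured cortex and 367, 138 and 88 in the cultures. Ikbke rose further in the cultures, by 1.33 over injured cortex (adjusted p = 0.00564), and the kinase gene Tbk1 by 0.75 (adjusted p = 0.00722). Sting1, the adaptor of cytosolic DNA sensing, fell by 2.39 (adjusted p = 1.17e-04) and Tlr3, the sensor of double-stranded RNA, by 2.00 (adjusted p = 2.68e-05).

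Of 13 genes of interferons and their receptors, 7 had enough counts to be tested. After injury 2 were called higher and 0 lower (edgeR, median 0.65), but 0 higher without injured replicate 1 or uninjured replicate 3, 1 without injured replicate 2 or uninjured replicate 2, and 6 without injured replicate 3. Ifng counts, for interferon-gamma, were 6, 16 and 6 in uninjured cortex, 130, 62 and 47 in injured cortex and 0, 1 and 0 in the cultures. Counts of Ifnb1, for interferon-beta, were 22, 5 and 0, then 142, 75 and 38, then 0, 0 and 1, and its rise after injury did not pass the test (adjusted p = 0.0596), which it did without injured replicate 3 (0.0127) or uninjured replicate 1 (0.0124).

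In the cultures the interferon-gamma receptor genes moved apart. Ifngr1, the ligand-binding chain, fell by 1.84 against injured cortex (adjusted p = 4.98e-04, edgeR) and by 1.69 against uninjured cortex (adjusted p = 6.11e-04). Ifngr2 rose by 1.68 against uninjured cortex (adjusted p = 1.39e-04), whereas against injured cortex its 0.65 (adjusted p = 0.0452) was lost on leaving out any single library other than injured replicate 2 or uninjured replicate 3. Of the 7 genes, 2 were called higher and 3 lower against injured cortex (median 0.07), and 3 and 3 against uninjured cortex (median 0.59). Over all genes the shares were 20.0% and 30.1%, and 27.5% and 33.1%.

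Of 12 genes of the JAK-STAT chain and its inhibitors, 5 were called higher and 0 lower after injury (edgeR, median 0.74), and 3 without injured replicate 1 or 2 without uninjured replicate 2. Stat2, a partner of Irf9 in ISGF3, rose by 1.22 (adjusted p = 0.0171), a call lost without injured replicate 1 (0.82, adjusted p = 0.115) or uninjured replicate 2 (1.10, 0.0905). In the cultures 6 of the 12 were called lower and 0 higher against injured cortex (median -0.90), with Socs3, a feedback inhibitor, at -4.36 (adjusted p = 3.46e-06), and 2 higher and 1 lower against uninjured cortex (median -0.04), the higher calls dropping to 0 or 1 on leaving out injured replicate 1, uninjured replicate 2 or 3, or any culture, and the lower calls reaching 2 without culture replicate 1.

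Partner factors that share DNA sites or repress with the family numbered 14. After injury 3 were called higher and 0 lower (edgeR, median 0.63), against 7 higher and 1 lower without injured replicate 3 and 5 higher without uninjured replicate 1. Spi1, which encodes PU.1, the partner of Irf8 and Irf4 at composite sites, did not pass in any comparison (0.82, -0.15 and 0.67, adjusted p = 0.155, 0.734 and 0.113), but passed after injury without injured replicate 3 (1.11, adjusted p = 0.0116) and in cultures against uninjured cortex without that library (0.66, 0.0325) or without uninjured replicate 1 (1.01, 0.0349). Ikzf1, encoding Ikaros, fell by 2.02 in the cultures against injured cortex (adjusted p = 1.68e-04) and by 2.18 against uninjured cortex (adjusted p = 6.31e-05). In the cultures 6 of 14 were called lower and 0 higher against injured cortex (median -0.73), where 30.1% and 20.0% of all genes were. Against uninjured cortex 1 was called higher and 1 lower (median -0.29), where 27.5% and 33.1% of all genes were. The counts against uninjured cortex reached 3 and 2 without injured replicate 3, and 2 and 2 without uninjured replicate 1. The lower count was 2 without injured replicate 1 or culture replicate 3.

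Downstream of the family, 24 interferon-stimulated genes driven by ISREs were counted. After injury 23 of 24 were called higher and 0 lower (edgeR, median 3.16), the exception being Xaf1. The list summed to 335, 291 and 295 CPM in uninjured cortex, 4203, 1754 and 877 CPM in injured cortex and 355, 562 and 615 CPM in the cultures. The injured libraries had the same order as for Irf7, and the cultures lay above uninjured and below injured cortex. Isg15, a ubiquitin-like modifier, rose by 4.20 (adjusted p = 6.17e-04), Oasl1 by 5.29 (adjusted p = 6.39e-04) and the antiviral GTPase gene Mx1 by 4.34 (adjusted p = 7.47e-04).

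**Figure D5:**
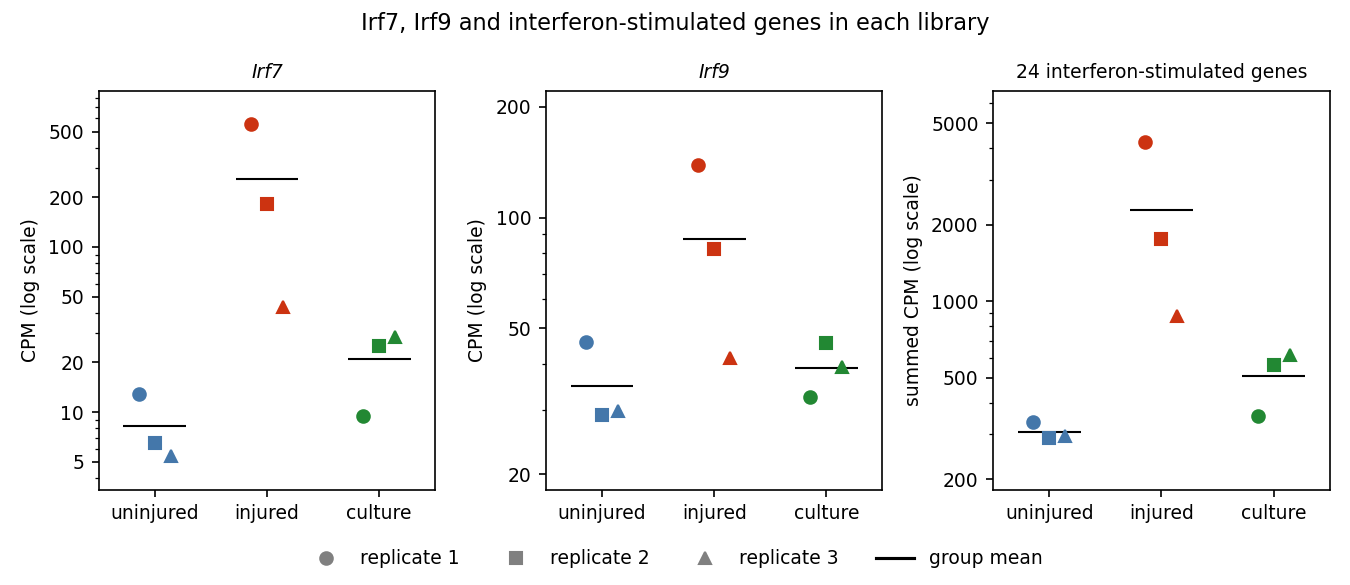
CPM of Irf7 and Irf9, and summed CPM of 24 interferon-stimulated genes, in each library (log axes), with symbols for replicates and a bar for the group mean. In injured cortex replicate 1 is highest in all 3 panels, and the gene sum runs from 877 to 4203 CPM against 291 to 615 CPM in the other 6 libraries.

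In the cultures 21 of the 24 were called lower against injured cortex and 0 higher (edgeR, median -2.50). The exceptions were Oas1a, Oas3 and Bst2. Cxcl10, a chemokine of T cells, fell by 8.49 (adjusted p = 1.60e-05), to 1.29, 0.919 and 0.938 CPM, below uninjured cortex as well. Against uninjured cortex 5 were called higher and 3 lower (median 0.32). Oas3, an activator of RNase L, had 0, 6 and 4 counts in uninjured cortex and 75, 57 and 56 in the cultures, and Oas1a of the same enzyme family rose by 3.58 (adjusted p = 3.08e-04). Cxcl10 fell by 3.92 (adjusted p = 0.00126) and Mx2 by 1.77 (adjusted p = 0.00519).

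Of 16 genes of antigen processing and other responses to interferon-gamma, 12 were called higher and 0 lower after injury (edgeR, median 1.55), and 7 without uninjured replicate 2. Their sum was 2657, 2871 and 1813 CPM in uninjured cortex, 10319, 6699 and 2849 CPM in injured cortex and 3198, 3801 and 3464 CPM in the cultures. Injured replicate 3 lay inside the uninjured range. Nlrc5, the transactivator of MHC class I genes, rose by 2.85 (adjusted p = 8.03e-04) and Tap1, a peptide transporter, by 2.21 (adjusted p = 0.00110). In the cultures 11 were called lower and 1 higher against injured cortex (median -1.23), and 3 higher and 2 lower against uninjured cortex (median 0.29), the latter 5 and 4 without injured replicate 3. The one higher against injured cortex was Cd274, encoding PD-L1 (1.16, adjusted p = 0.0308), a call lost without any one culture, and it rose by 3.61 against uninjured cortex (adjusted p = 3.14e-05).

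Genes whose pattern over the 9 libraries was most like that of each member were ranked by Pearson's r of log2 CPM among genes averaging 10 CPM or more. The r is a description over 9 libraries that fall into 3 groups. Irf7 was most like H2-K1 (0.989), Gm6377 (0.986) and Rsad2 (0.984), and Irf9 most like Gbp2 (0.980), Isg20 (0.977) and Tap2 (0.968). Irf1 was most like Mif4gd (0.987), Pim2 (0.981) and Nfkbie (0.980), Irf8 most like Atp6v0a2 (0.976), Jak3 (0.970) and Btg1 (0.960), and Irf5 most like Uap1 (0.979), Rgs1 (0.975) and Nfe2l2 (0.965). Irf4 was most like Irs2 (0.995), Apod (0.992) and Olig1 (0.988), Irf3 most like Vps28 (0.994) and Irf2 most like Slc4a1ap (0.984).

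Exons of 5 members overlap another gene in the GENCODE M21 annotation of GRCm38, and the strand setting of the counting is not given in the sources used here. The shared exon length was 135 bases for Irf1 and Gm17334, 88 for Irf3 and Bcl2l12, 411 for Irf5 and Tnpo3 and 45 for Irf7 and Phrf1, each on opposite strands, and 123 for Irf9 and Rnf31 on the same strand. Phrf1 had 219, 328 and 283 counts in uninjured cortex, 306, 217 and 565 in injured cortex and 419, 194 and 194 in the cultures, against 234, 144 and 89, then 11753, 3474 and 1280, then 154, 437 and 364 for Irf7. Phrf1 thus exceeded Irf7 in uninjured replicates 2 and 3 and in culture replicate 1, and lay below it in the other 6 libraries. Counts per library were 363 to 1168 for Tnpo3 against 1123 to 3555 for Irf5, 116 to 445 for Rnf31 against 488 to 2942 for Irf9, 108 to 215 for Bcl2l12 against 484 to 1226 for Irf3, and 9 to 277 for Gm17334 against 261 to 3599 for Irf1. Irf2, Irf4 and Irf8 overlapped no other gene.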

How the data were processed

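Polyadenylated RNA was sequenced in 9 libraries, 3 per group, grouped by the sample labels. The authors deposited raw read counts per gene, and the submitters' processing notes name HISAT2 and GRCm39 with no version. Which counter, strand setting and annotation they used is not given in the sources used here. Of 56748 genes counted, 19741 were at 0 throughout, and 77 symbols belonged to more than 1 gene, none a member.

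Counts were analysed with edgeR 4.0.16 in R 4.3.3. After filterByExpr 18093 genes were tested by the quasi-likelihood test on all 9 libraries with TMM scaling, 6 residual degrees of freedom and Benjamini-Hochberg adjustment over all genes, and a gene was called at an adjusted p under 0.05. The labels call the libraries biological replicates of each group but do not say whether each came from 1 animal, so p-values measure the spread between these libraries. Levels are TMM-scaled CPM, and levels per kb use merged exon length in GENCODE M21. Changes are log2 fold changes ± SE (the log2 fold change over the square root of F). Ratios use log2 of count plus 1 and two-sided exact permutation tests (scipy 1.17.1). Intervals cover counting error only. Promoters are from RefSeq (GRCm38.p6), a build other than the authors'.

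The members and the 6 pathway and 12 marker lists (99 pathway genes, 1 matched by an older symbol) were chosen with earlier results of these data known. Named genes are all members, the 3 genes with the smallest adjusted p of each list, called exceptions to a list, a set of signalling genes and the 3 genes most like each member; not each is printed. Alternatives were DESeq2 1.42.0 (Wald test, and its size factors in edgeR), limma-voom (limma 3.58.1), library sizes computed without mitochondrial genes and the 100 most abundant genes, upper-quartile factors, no filter, 1 CPM in 3 libraries, the 2 groups alone, a replicate block and each library left out. One more alternative, chosen after seeing the data, dropped both uninjured replicates 2 and 3, which leaves 1 uninjured library whose spread is taken from the other groups. The analysis was tested on simulated data in which few genes changed, so that test does not bear on the scaling of the culture comparisons.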

Additional observations from a re-analysis of the deposited data

How the results depend on the processing

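Of 456 alternative values (24 pairs of member and comparison under 19 alternatives each), 386 kept their direction and their side of the threshold, 34 lost a call, 25 gained one and 11 changed direction, none of them while called. Irf7 after injury kept its call in each alternative except the omission of uninjured replicates 2 and 3 together. The changes of direction were, in cultures against uninjured cortex, Irf9 (-0.23 with library sizes without the most abundant genes, -0.24 without uninjured replicates 2 and 3, -0.029 with upper-quartile factors), Irf5 (-0.023 with library sizes without the most abundant genes) and Irf8 (-0.12 to 0.079 with 1 library left out, above 0 without culture replicate 3 or uninjured replicate 1), and, after injury, Irf3 (0.025 with no filter, and -0.10 to 0.064 with 1 library left out, above 0 without injured, culture or uninjured replicate 3) and Irf4 (-0.0038 without injured replicate 1, up to 0.64 without replicate 2). With library sizes without the most abundant genes, Irf8 was called lower in cultures against uninjured cortex (-0.45, adjusted p = 0.0287, edgeR). The cause of these changes was not tested.

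After injury 2145 genes were called, 1369 with the 2 groups alone, 462 without uninjured replicates 2 and 3, and 974 to 4102 with 1 library left out (974 without injured replicate 1, 4102 without injured replicate 3, 1123 and 1284 without uninjured replicate 2 and 3). In cultures 9057 were called against injured cortex (7195 to 9331 with 1 library left out) and 10954 against uninjured cortex (9585 to 12147, and 6996 without uninjured replicates 2 and 3). Members called after injury numbered 3, with 1 for the 2 groups alone or upper-quartile factors and 1 to 5 with 1 library left out, where 5 came without injured replicate 3. At an unadjusted p under 0.05, 4737 genes passed after injury. Members called against injured cortex were 6 (3 to 6 with 1 library left out, 3 without culture replicate 3). They were 7 with upper-quartile factors or library sizes without the most abundant genes. Members called against uninjured cortex were 2 (4 with DESeq2's Wald test, 1 CPM in 3 libraries or upper-quartile factors, 5 with the 2 groups alone or library sizes without the most abundant genes, 2 to 4 with 1 library left out). List genes called were 50 after injury (5 without uninjured replicates 2 and 3, 33 to 66 with 1 library left out), 61 against injured cortex (47 to 69) and 33 against uninjured cortex (17 without uninjured replicates 2 and 3, 27 to 47). The lists hold 99 pathway genes, not all of them tested. Of all genes tested, 11.9% were called after injury, 50.1% against injured cortex and 60.5% against uninjured cortex. After injury that share was 5.12% to 21.9% with 1 library left out. Calls over all genes thus moved with the setting too, so the shifts in list counts are not specific to the lists. Upper-quartile factors moved the median gene by -0.13, -0.07 and -0.19 in the 3 comparisons, and the share of calls that were higher after injury was 64.0% with them and 64.5% with library sizes without the most abundant genes, against 75.8%.

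Differences of log2 ratios with 1 library left out were 0.47 to 1.37, -2.22 to -1.50 and -1.28 to -0.49 for Irf1 over Irf2 (injured minus uninjured, culture minus injured, culture minus uninjured), 3.54 to 5.28, -3.55 to -1.81 and 1.44 to 2.14 for Irf7 over Irf3, -0.70 to -0.04, -3.51 to -2.84 and -3.79 to -3.41 for Irf4 over Irf8, and -0.32 to 0.05, 0.40 to 0.70 and 0.27 to 0.56 for Irf5 over Irf8. Replicate numbers were not used to pair the libraries. Same-numbered libraries of uninjured and injured cortex had r of 0.151, -0.088 and 0.353 across genes, and different-numbered ones -0.317 to 0.267. With 3 libraries per group these values cannot settle whether the libraries are paired. A block for the replicate number gave 2203 genes after injury, 9096 and 11060 in the cultures, and 4, 6 and 2 members, the fourth being Irf1 (1.08, adjusted p = 0.0176, edgeR). Irf4 had 2 counts in each culture, so its level there has a wide counting interval.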
